A study of Mus musculus with 4 samples.

Results

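The 8 miRNA names described here belong to leukocytes, microglia and the injury response of glia: mmu-miR-146a-5p, mmu-miR-146b-5p, mmu-miR-155-5p, mmu-miR-21a-5p, mmu-miR-21a-3p, mmu-miR-223-3p, mmu-miR-150-5p and mmu-miR-142-5p. They were taken by name from the 1900 miRNA names of the count table, by a rule that uses no measured value, although the list was drawn up with earlier results of these data known. The 4 libraries were small RNA sequenced after immunoprecipitation of Argonaute2 (AGO2), the protein that carries mature miRNAs to their targets, from freshly dissected olfactory bulb of C57BL/6 mice. The GFP-AGO2 group (n = 2, replicates 1 and 3) came from mice given the viral vector LV.PGK.GFP-AGO2, and the Control group (n = 2, replicates 1 and 3) from sham-injected mice with no vector, both taken 8 weeks after injection. PGK names a promoter that is active in most cell types. The series' design text speaks of newborn neurons of the bulb, whereas the sample labels give the whole dissected tissue. The sources used here give neither the age of the mice nor any pooling of animals, and name no antibody or input RNA. It is thus unknown whether the Control libraries hold RNA on the mouse's own AGO2 or background of the procedure, and every change below is relative to them. Since no label ties each library to its own mouse, the spread behind the p-values may be technical.

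Immune cells carry a small set of miRNAs that most other cells hold at low levels. MiR-142 is made in nearly all blood-derived cells, including microglia, miR-223 is strongest in myeloid cells and miR-150 in mature lymphocytes. MiR-146a and miR-155 are switched on by the inflammatory transcription factor NF-kB, and miR-146 dampens that pathway by repressing the adaptor proteins Irak1 and Traf6. MiR-21 is found in many cell types and is known to rise in reactive astrocytes and after tissue injury. A miRNA finds its targets mainly through its seed, bases 2 to 8 from the 5′ end.

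Mature sequences at the same coordinates as the table's names were found in RefSeq (GRCm38.p6) for 7 of the 8 names. They are printed 5′ to 3′ with the seed in capitals, to show which names share a seed and which could exchange reads. MiR-150-5p is named only.
miR-146a-5p: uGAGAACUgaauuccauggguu
miR-146b-5p: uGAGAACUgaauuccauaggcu
miR-21a-5p: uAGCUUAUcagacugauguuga
miR-21a-3p: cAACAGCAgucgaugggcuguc
miR-155-5p: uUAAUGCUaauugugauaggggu
miR-142-5p: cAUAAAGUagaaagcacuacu
miR-223-3p: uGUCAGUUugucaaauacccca

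MiR-146a-5p and miR-146b-5p have the same seed, GAGAACU, and are identical over their first 17 bases. Counted from the 5′ end, they differ by G18A and U21C from miR-146a-5p to miR-146b-5p. A read that ends before these positions could belong to either name, so the split between them is uncertain to that extent. The seed of miR-21a-5p is shared with miR-21c, which differs from it at 5 positions. MiR-21c had 36 and 30 counts in GFP-AGO2 replicates 1 and 3, against 12 and 13 in Control replicates 1 and 3. The GFP-AGO2 libraries were the deeper ones. After scaling, its log2 fold change of GFP-AGO2 over Control was -0.31 (SE 0.50, edgeR adjusted p = 0.669). Among the table's names with a matched sequence, the seeds of miR-21a-3p, miR-155-5p, miR-142-5p and miR-223-3p belong to no other name. RefSeq calls the table's miR-142-5p miR-142a-5p.

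All 8 names had a single position in the table and no overlap with another name. In mm10, miR-146a-5p lies on chromosome 11 at 43374435 to 43374456 (minus strand), inside its own gene Mir146. MiR-146b-5p lies on chromosome 19 at 46342790 to 46342811, within an intron of Mfsd13a. MiR-21a-5p (86584120 to 86584141) and miR-21a-3p (86584082 to 86584103) lie on the minus strand of chromosome 11, in a stretch annotated as untranslated region of Vmp1. MiR-142-5p is on the same chromosome at 87756867 to 87756887, in an intron of the long noncoding RNA Mir142hg. MiR-155-5p is on chromosome 16 at 84714143 to 84714165, in an exon of Mir155hg, and miR-223-3p on chromosome X at 96242884 to 96242905, in an exon of F630028O10Rik. MiR-150-5p is on chromosome 7 at 45121762 to 45121783, in its own gene Mir150.

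The libraries held 2809758 and 1858354 miRNA counts in GFP-AGO2 replicates 1 and 3 and 1006861 and 673916 in Control replicates 1 and 3, with 714 to 843 names detected in each. Levels are given as CPM (counts scaled to a common library size), scaled by edgeR's TMM factors of 0.8998 to 1.098. Changes were tested with edgeR's quasi-likelihood test over the 457 miRNAs that passed a filter on low counts, with p-values adjusted over all of them. At an adjusted p under 0.05, 157 of the 457 were called (34.4%), of which 79 were higher (17.3%) and 78 lower (17.1%) in GFP-AGO2 than in Control. In CPM, 72% had groups that did not overlap, with the GFP-AGO2 libraries above those of Control for 36.8% and below them for 35.2%. The 16 epithelial and sensory names (miR-200 family, miR-183 cluster) took 2.61% and 5.10% of the counts in the GFP-AGO2 libraries and 23.9% and 23.4% in the Control libraries, and the summed share of the set is therefore also given with these counts taken out.

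Of the 8 names, 5 passed the filter and 3 did not. MiR-146a-5p and miR-150-5p fell, to 0.222 and 0.192 of their Control level. MiR-21a-5p, miR-146b-5p and miR-155-5p did not pass the test. MiR-142-5p, miR-223-3p and miR-21a-3p were too sparse for the filter. With no filter all 8 names were tested, and only miR-146a-5p and miR-150-5p were called. No name was called higher by edgeR, at an unadjusted p under 0.05 the count was also 0, and DESeq2 called 0 higher and 2 lower. Of the 5 tested names 2 were called lower, where 17.1% of all tested miRNAs were. These 2 were also the tested names whose groups did not overlap in CPM, where 72% of all tested miRNAs did not overlap. For 35.2% of all tested miRNAs both GFP-AGO2 libraries lay below both Control libraries. The median log2 fold change of the 5 tested names was -0.09, beside -0.01 over all 457. In these bulk samples fewer cells of a type and less RNA per cell cannot be told apart, and neither can a smaller part of the miRNA being bound to the precipitated protein.

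**Figure D1:**
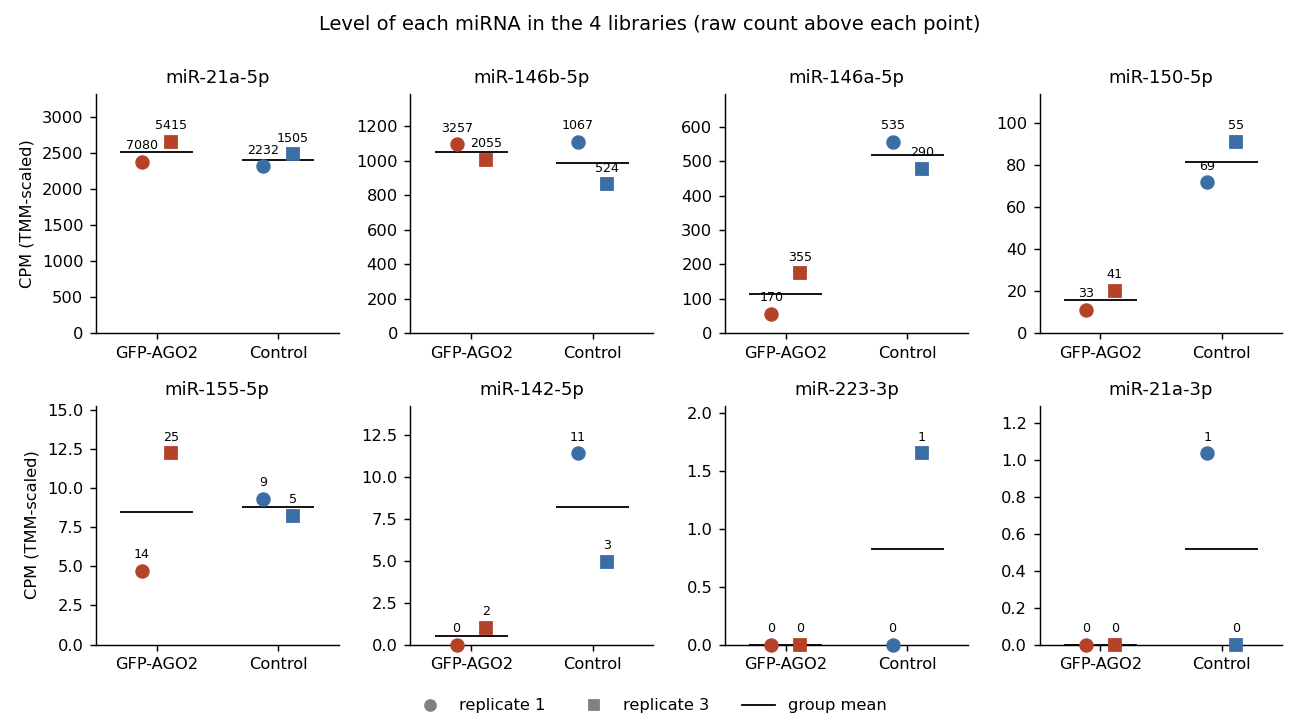
Level of each of the 8 miRNAs in TMM-scaled CPM (each vertical axis starts at 0 and has its own range) in the GFP-AGO2 and Control libraries, with the raw count above each point and the group mean as a line. For miR-146a-5p and miR-150-5p both GFP-AGO2 libraries lie below both Control libraries, whereas miR-21a-5p and miR-146b-5p overlap, and miR-223-3p and miR-21a-3p rest on 1 count each.

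MiR-21a-5p, the abundant injury-response arm, made up most of the counts of the whole set. It had 7080 and 5415 counts in GFP-AGO2 replicates 1 and 3, which is 2380 and 2654 CPM. In Control replicates 1 and 3 it had 2232 and 1505 counts, which is 2318 and 2482 CPM. The groups overlapped on this scale. The mean was 2517 ± 194 CPM in GFP-AGO2 and 2400 ± 116 CPM in Control (SD, n = 2 each). The log2 fold change was 0.07 (SE 0.14, 95% interval -0.28 to 0.42, edgeR adjusted p = 0.735). As a plain share of the miRNA counts, both GFP-AGO2 libraries lay above both Control libraries, at 0.252% and 0.291% against 0.222% and 0.223%. The edgeR fit on total counts alone did not call this difference either (0.29, adjusted p = 0.179).

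The other arm of this hairpin, miR-21a-3p, was almost absent. It had 0 counts in both GFP-AGO2 libraries, and 1 count in Control replicate 1 and 0 in Control replicate 3. The 3p arm was 0% of the hairpin's 7080 and 5415 counts in GFP-AGO2, with upper limits of 0.0521% and 0.0681% (exact Clopper-Pearson 95% interval). It was 0.0448% (0.00113 to 0.249) of 2233 counts in Control replicate 1 and 0%, at most 0.245%, of 1505 counts in Control replicate 3. No test of this share could pass, since the smallest p that 2 libraries against 2 allow in an exact two-sided permutation test is 0.333 (here p = 1). Both groups thus held miR-21a almost entirely as the 5p arm.

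MiR-146b-5p, the second in abundance, likewise showed no change past the spread between libraries. It had 3257 and 2055 counts in GFP-AGO2 replicates 1 and 3 (1095 and 1007 CPM), against 1067 and 524 in Control replicates 1 and 3 (1108 and 864 CPM). In CPM the Control libraries lay on either side of both GFP-AGO2 libraries. As a plain share of the miRNA counts the GFP-AGO2 libraries were the higher ones, at 0.116% and 0.111% against 0.106% and 0.0777% in Control. The log2 fold change was 0.09 (SE 0.18, 95% interval -0.35 to 0.54, edgeR adjusted p = 0.727). Its direction rested on single libraries, since it was -0.11 when Control replicate 3 was left out and 0.34 when Control replicate 1 was, neither of them called.

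MiR-146a-5p, which has the same seed, fell. It had 170 and 355 counts in GFP-AGO2 replicates 1 and 3 (57.2 and 174 CPM), against 535 and 290 in Control replicates 1 and 3 (556 and 478 CPM). Both GFP-AGO2 libraries were below both Control libraries, and replicate 1 was by far the lower of the GFP-AGO2 libraries. The mean was 116 ± 82.6 CPM in GFP-AGO2 and 517 ± 54.7 CPM in Control (SD, n = 2 each). The log2 fold change was -2.17 (SE 0.53, 95% interval -3.51 to -0.84, edgeR adjusted p = 0.0281), and 50 of the 457 tested miRNAs had a lower one. Leaving out GFP-AGO2 replicate 3 gave -3.18, and leaving out GFP-AGO2 replicate 1 gave -1.57. The call was lost when Control replicate 1 was left out (-2.02, edgeR adjusted p = 0.0869), and also when Control replicate 3 was (-2.33, adjusted p = 0.0573).

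The division of the GAGAACU seed family between its 2 names is given as a description, chosen after the values were seen and not tested. MiR-146a-5p was 4.96% (exact 95% interval 4.26 to 5.74) of the 3427 counts of both names in GFP-AGO2 replicate 1 and 14.7% (13.3 to 16.2) of 2410 in GFP-AGO2 replicate 3. It was 33.4% (31.1 to 35.8) of 1602 counts in Control replicate 1 and 35.6% (32.3 to 39.0) of 814 in Control replicate 3. These shares do not depend on the scaling between libraries. With both names summed into 1, a choice also made after the data were seen, the family had 1155 and 1183 CPM in the GFP-AGO2 libraries and 1661 and 1340 CPM in the Control libraries. The summed log2 fold change was -0.36 (SE 0.16, 95% interval -0.77 to 0.05, edgeR adjusted p = 0.143). The 3p arms were at or near 0: miR-146a-3p had no count in the 4 libraries, and miR-146b-3p had 2 and 0 counts in GFP-AGO2 and 2 and 0 in Control replicates 1 and 3.

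MiR-150-5p, the lymphocyte miRNA that restrains the transcription factor Myb, also fell. It had 33 and 41 counts in GFP-AGO2 replicates 1 and 3 (11.1 and 20.1 CPM), against 69 and 55 in Control replicates 1 and 3 (71.7 and 90.7 CPM). Even the raw counts were lower in the GFP-AGO2 libraries, which were the deeper ones. The mean was 15.6 ± 6.37 CPM in GFP-AGO2 and 81.2 ± 13.5 CPM in Control (SD, n = 2 each). The log2 fold change was -2.39 (SE 0.41, 95% interval -3.42 to -1.35, edgeR adjusted p = 0.00957). It was called under each of the 12 alternative settings and left-out libraries tried, at -2.86 to -2.00. Its partner arm miR-150-3p had 6 and 5 counts in GFP-AGO2 replicates 1 and 3 (2.02 and 2.45 CPM), against 8 and 12 in Control replicates 1 and 3 (8.31 and 19.8 CPM). This was a log2 fold change of -2.58 (SE 0.77), which edgeR did not call (adjusted p = 0.0541, unadjusted p = 0.0193). It passed the filter only through the Control libraries. With a library left out it ranged from -3.07 without Control replicate 1 to -1.92 without Control replicate 3, never called (edgeR adjusted p = 0.0645 to 0.25), and of the other settings only DESeq2's size factors gave a call (-2.57, adjusted p = 0.0494).

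MiR-155-5p, induced in activated macrophages, microglia and lymphocytes, was close to the lower limit of what could be tested. It had 14 and 25 counts in GFP-AGO2 replicates 1 and 3 (4.71 and 12.3 CPM), against 9 and 5 in Control replicates 1 and 3 (9.35 and 8.25 CPM). The GFP-AGO2 libraries lay on either side of both Control libraries. The log2 fold change was -0.09 (SE 0.72, adjusted p = 0.947), with a 95% interval of -1.91 to 1.74 that holds large changes in either direction. Its partner arm miR-155-3p had 0 and 4 counts in GFP-AGO2 and 0 in both Control libraries.

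The miRNAs that best mark blood-derived cells were barely counted. MiR-142-5p had 0 and 2 counts in GFP-AGO2 replicates 1 and 3, against 11 and 3 in Control replicates 1 and 3. As a share this was 0% (exact 95% interval up to 0.000131%) and 0.000108% (1.3e-05 to 0.000389) in GFP-AGO2, against 0.00109% (0.000545 to 0.00196) in Control replicate 1 and 0.000445% (9.2e-05 to 0.0013) in Control replicate 3. Both GFP-AGO2 libraries were below both Control libraries, but the interval of Control replicate 3 overlaps those of both GFP-AGO2 libraries. The name was tested only with no filter, where it was not called. Its partner miR-142-3p, usually the more abundant arm, shares its position with miR-142b and was listed at 0 in the 4 libraries, which is not read as absence. MiR-223-3p had 0 counts in both GFP-AGO2 libraries, and 0 in Control replicate 1 and 1 in Control replicate 3. Its exact 95% intervals reach up to 0.000131% in GFP-AGO2 replicate 1, 0.000199% in GFP-AGO2 replicate 3, 0.000366% in Control replicate 1 and 0.000827% in Control replicate 3. Its partner miR-223-5p had 0 and 6 counts in GFP-AGO2 replicates 1 and 3, against 3 and 0 in Control replicates 1 and 3. The intervals cover counting error only, since copies of a molecule made by PCR are counted as separate reads.

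**Figure D2:**
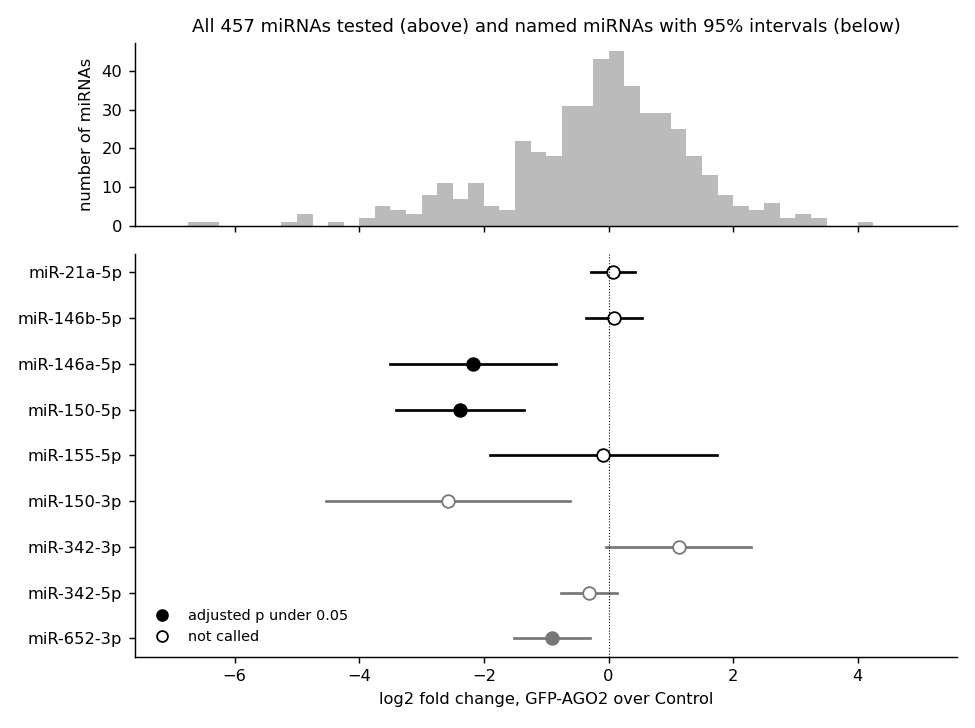
Log2 fold change of GFP-AGO2 over Control for the 457 tested miRNAs as a histogram (above) and for named miRNAs with 95% intervals (below; black for the 5 tested names of the set, grey for other leukocyte miRNAs and partner arms, filled where the adjusted p was under 0.05). MiR-150-5p (-2.39) and miR-146a-5p (-2.17) lie in the left tail, and the other 3 of the set lie within 0.1 of 0.

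The order of the levels was the same by group mean in GFP-AGO2 and in Control: miR-21a-5p, miR-146b-5p, miR-146a-5p, miR-150-5p and miR-155-5p. CPM of miRNAs are not divided by length, and the 7 printed sequences are 21 to 23 bases long. In Control, each of the first 4 stood clear of its neighbours in both libraries. In GFP-AGO2, miR-150-5p (11.1 and 20.1 CPM) and miR-155-5p (4.71 and 12.3 CPM) overlapped. By mean CPM among the 457 tested miRNAs, miR-21a-5p was at place 45 in GFP-AGO2 and 50 in Control, miR-146b-5p at 77 and 75. MiR-146a-5p was at place 187 in GFP-AGO2 and 103 in Control, and miR-150-5p at 333 and 209.

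Summed over all 8 names, the set took 0.376% and 0.425% of the miRNA counts in GFP-AGO2 replicates 1 and 3, against 0.390% and 0.354% in Control replicates 1 and 3. The groups overlapped, and the mean difference was 0.0285 percentage points. The direction depended on the denominator. Once the epithelial and sensory names were taken out of it, the shares were 0.386% and 0.448% in GFP-AGO2 and 0.512% and 0.462% in Control, a difference of -0.0703 points. The sum is mostly miR-21a, at 67.1% and 68.6% of the set's counts in GFP-AGO2 and 56.9% and 63.2% in Control. The 4 leukocyte and microglial names miR-142-5p, miR-150-5p, miR-155-5p and miR-223-3p together gave only 47 and 68 counts in GFP-AGO2 replicates 1 and 3, against 89 and 64 in Control replicates 1 and 3. As shares of all counts these were 0.00167% and 0.00366% in GFP-AGO2, against 0.00884% and 0.00950% in Control. Most of these counts were of miR-150-5p, at 33 and 41 in GFP-AGO2 and 69 and 55 in Control, so the lower sum mainly restates its fall. The name of the set as immune and microglial thus rests on few counts here, and its bulk is miR-21a-5p and miR-146b-5p.

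**Figure D3:**
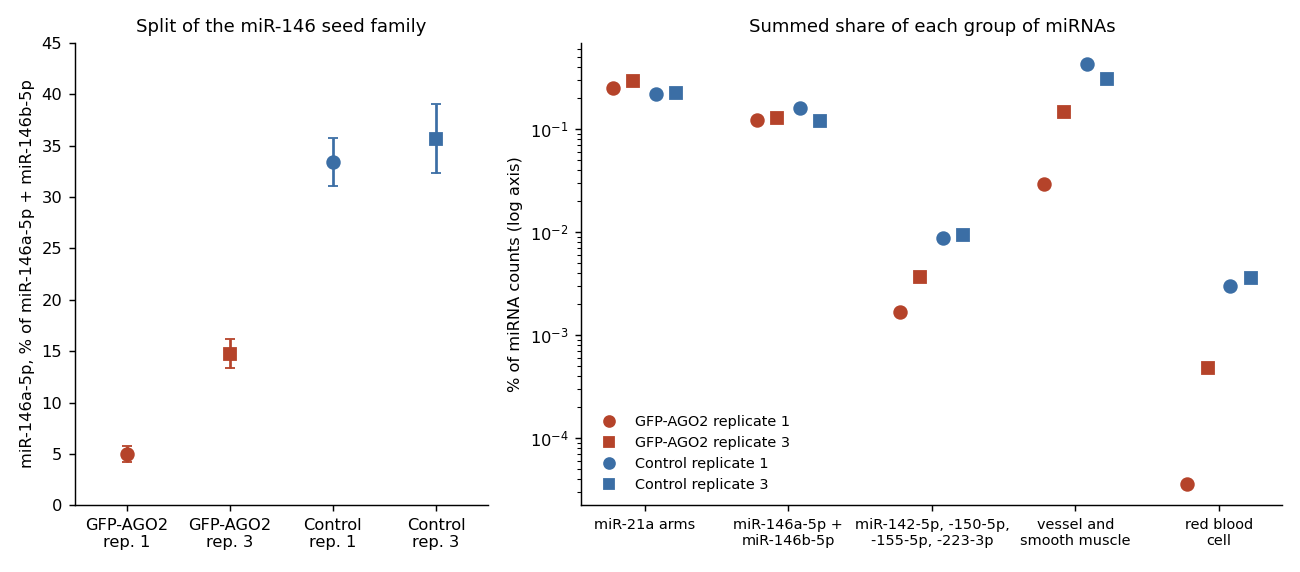
Left, miR-146a-5p as a percent of the counts of miR-146a-5p and miR-146b-5p in each library, with exact 95% intervals; right, summed percent of all miRNA counts (log axis) for groups of miRNAs, 1 point a library. MiR-146a-5p takes 4.96% and 14.7% of its family in GFP-AGO2 and 33.4% and 35.6% in Control, and the leukocyte, vessel and red blood cell sums are all lowest in GFP-AGO2 replicate 1.

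As summed shares of all miRNA counts, the epithelial, vessel and blood markers were also lower in the GFP-AGO2 libraries. Of the epithelial and sensory names, all 13 tested were called lower, with a median log2 fold change of -2.83 and the shares given above. The 6 vessel and smooth muscle names took 0.0292% and 0.148% of the counts in GFP-AGO2 replicates 1 and 3, against 0.433% and 0.311% in Control replicates 1 and 3. Of their 3 tested members, only miR-145a-3p was called lower (log2 fold change -2.66, SE 0.58, edgeR adjusted p = 0.0206). The most abundant, miR-143-3p, was not called by edgeR (-2.29, SE 0.74, adjusted p = 0.0637), although DESeq2 called it (-2.32, adjusted p = 0.0454). Of 8 alternative settings 3 called miR-143-3p: DESeq2, no filter and the replicate block. The vessel markers miR-126a-3p and miR-126a-5p were listed at 0 in the 4 libraries. Overlap with other names was not checked for this list, so these 0 counts are not read as absence. The 5 red blood cell names summed to 1 and 9 counts in GFP-AGO2 replicates 1 and 3, against 30 and 24 in Control replicates 1 and 3, and their 1 tested member, miR-451a, was called lower (-3.63, SE 0.99, adjusted p = 0.0406), having passed the filter only through the Control libraries. Neither call, of miR-145a-3p or of miR-451a, held with a Control library left out: edgeR gave adjusted p = 0.0571 without replicate 1 and 0.0581 without replicate 3 for miR-145a-3p, and 0.0932 and 0.109 for miR-451a. Within GFP-AGO2, replicate 1 was below replicate 3 for these sums. In CPM it was also the lower for miR-146a-5p and miR-150-5p, and for miR-155-5p and miR-21a-5p (2380 and 2654 CPM), which were not called. MiR-146b-5p went the other way (1095 and 1007 CPM), and miR-142-5p had only 0 and 2 counts. The part of epithelial, vessel and blood cells in the falls of miR-146a-5p and miR-150-5p was not tested.

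Among 8 other leukocyte and macrophage names, 3 were tested, and they did not move together. MiR-652-3p fell, at 108 and 117 CPM in GFP-AGO2 replicates 1 and 3 against 172 and 251 CPM in Control replicates 1 and 3 (log2 fold change -0.91, SE 0.24, edgeR adjusted p = 0.0373). EdgeR did not call it on total counts alone (-0.68, adjusted p = 0.0723) or with no filter (-0.66, adjusted p = 0.0766). It was also not called without Control replicate 3 (-0.66). MiR-342-3p had 202 and 219 CPM in GFP-AGO2 replicates 1 and 3, against 53.0 and 145 CPM in Control replicates 1 and 3. Both GFP-AGO2 libraries were higher, but the Control libraries lay far apart. EdgeR did not call it (1.12, SE 0.46, adjusted p = 0.119), whereas DESeq2 did (1.12, adjusted p = 0.0419). Of 8 alternative settings 3 called miR-342-3p: DESeq2, no filter and the replicate block. Without Control replicate 3 it was 1.95, and without Control replicate 1 it was 0.59. Without GFP-AGO2 replicate 1 it was 1.18, and without GFP-AGO2 replicate 3 it was 1.06. Its partner miR-342-5p had -0.31 (SE 0.18, adjusted p = 0.233). The macrophage names were near 0: miR-511-3p had 2 and 0 counts and miR-147-3p 0 and 4 counts in GFP-AGO2 replicates 1 and 3, and both had 0 in the Control libraries. MiR-511-5p, miR-147-5p and miR-652-5p had no count in any library.

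The 5 tested names did not share a profile over the 4 libraries. Centred on its own mean, the log2 CPM of miR-146a-5p was -1.97 and -0.38 in GFP-AGO2 replicates 1 and 3 and 1.28 and 1.07 in Control replicates 1 and 3. That of miR-150-5p was -1.56 and -0.77 in GFP-AGO2 and 1.00 and 1.34 in Control, whereas that of miR-21a-5p stayed between -0.08 and 0.11. The mean profile, -0.83 and -0.11 in GFP-AGO2 and 0.50 and 0.44 in Control, is therefore a blend. The 5 other tested miRNAs nearest to it, by Euclidean distance over the 4 libraries, were miR-29b-2-5p (0.0426), miR-152-3p (0.225), miR-423-5p (0.234), miR-3102-3p (0.238) and miR-1298-5p (0.252). Of these, edgeR called miR-152-3p (-0.87, adjusted p = 0.0256) and miR-423-5p (-0.91, adjusted p = 0.0292) lower, and the other 3 had log2 fold changes of -1.14 to -0.93 without a call. Both calls were lost with either Control library left out, and on total counts alone (edgeR adjusted p = 0.0723 and 0.0693). That of miR-152-3p was also lost with no filter (edgeR adjusted p = 0.0613) and without GFP-AGO2 replicate 1 (-0.67).

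**Figure D4:**
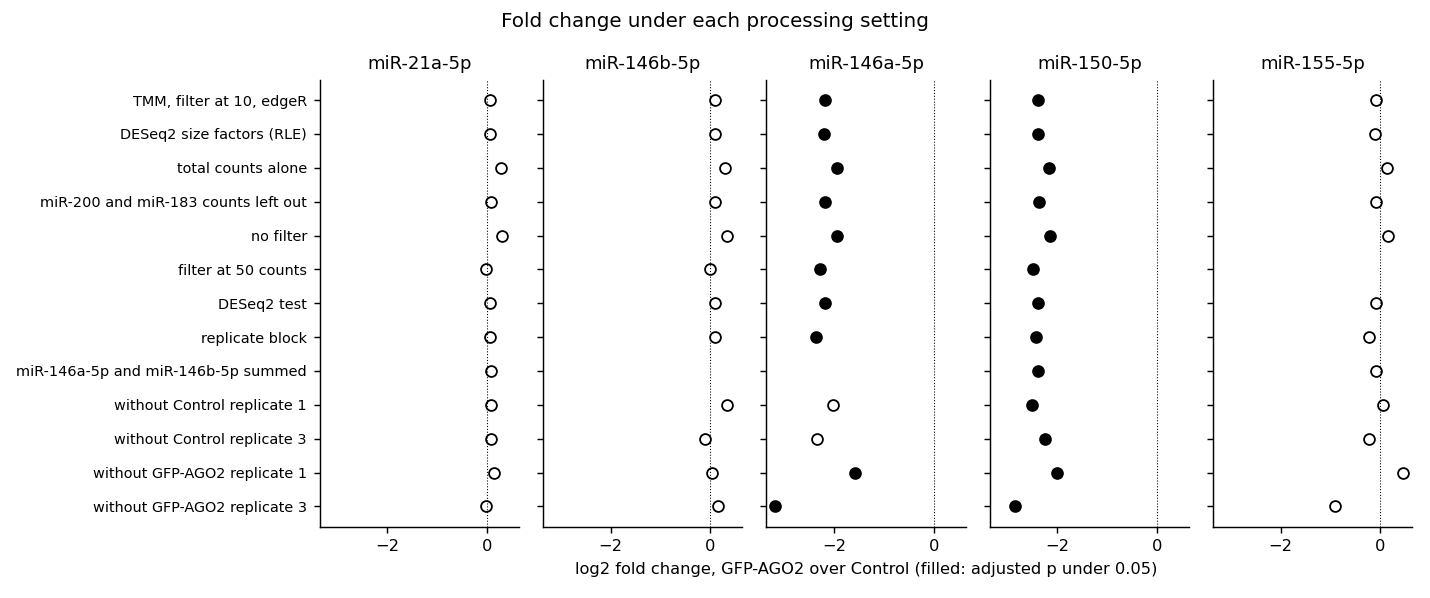
Log2 fold change of GFP-AGO2 over Control for the 5 tested names under each processing setting and with each library left out, filled where the adjusted p was under 0.05. MiR-150-5p is called in every row shown, miR-146a-5p in all rows that hold it except those without a Control library, and the other 3 names in none.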

How the data were processed

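Per the file headers, the authors' counts per mature miRNA name are of primary alignments to mm10 and come from featureCounts (v1.4.6-p1) with a miRBase annotation. The command carries no strand option and none for reads that overlap several names. Cutadapt and STAR are named in the submitters' processing notes without versions. Columns were tied to samples by their titles.

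The deposited counts went into edgeR 4.0.16 under R 4.3.3 (quasi-likelihood F test, TMM, filterByExpr with a minimum count of 10, group as the only term, two-sided, Benjamini-Hochberg over the 457 miRNAs tested, called at an adjusted p under 0.05). The tested miRNAs held 99.88% to 99.93% of each library's counts. SE and 95% intervals come from this fit. The centred profiles use log2 CPM with a prior count of 2. DESeq2 1.42.0 was an alternative, as were other scalings and filters, a replicate block and leaving out each library. The fit was checked on simulated counts. Replicates of a group differed by more than sampling noise (chi-square 48060 on 576 degrees of freedom in GFP-AGO2 and 4824 on 478 in Control).

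The 8 names, the marker lists and the tests were chosen with earlier results of these data known. The rule for names took every member and both arms of its hairpin, and the 5 miRNAs nearest in profile. It also took the called and the 2 most abundant tested members of each other list. Members of the epithelial and sensory list and of the neuronal list are not named one by one, and only list totals are given. Neuronal and oligodendrocyte lists were also fixed. Of 11 tested neuronal names 2 were called higher and 1 lower. The 5 oligodendrocyte names were listed at 0 in the 4 libraries. Their overlap with other names was not checked, and this is not read as absence.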

Additional observations from a re-analysis of the deposited data

How the results depend on the processing

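Over all tested miRNAs, 47 to 94 were called higher and 43 to 106 lower with a library left out. Of the 8 names 0 were called higher throughout, and 1 or 2 lower. MiR-146a-5p was no longer called without Control replicate 1 (-2.02) or Control replicate 3 (-2.33), where its log2 fold change stayed close to -2.17. Fits without a Control library take their spread from GFP-AGO2 alone, whose libraries lay far apart for this name (57.2 and 174 CPM). Fits without a GFP-AGO2 library take their spread from Control alone (556 and 478 CPM for this name). All these fits have fewer libraries. With miR-146a-5p and miR-146b-5p summed, 1 name was called lower, since miR-146a-5p no longer stands alone. Total counts alone and no filter moved the median of all miRNAs by 0.22 and 0.24, and turned miR-155-5p to 0.13 and 0.15; the filter at 50 counts turned miR-21a-5p to -0.0217. With single libraries left out miR-155-5p ranged from -0.90 to 0.46, miR-21a-5p from -0.0115 to 0.15, miR-146b-5p from -0.11 to 0.34 and miR-21c from -0.63 to 0.0602. Left-out libraries moved miR-143-3p between -3.87 and -1.56 and miR-451a between -5.90 and -2.64. The summed share differed by 0.00395 to 0.0531 percentage points with a library left out and by -0.0703 without miR-200 and miR-183 counts. The 3p share of miR-21a differed by -0.0448 to 0. The deviations of libraries with the same replicate number were barely correlated (-0.0606), which cannot show whether these libraries were handled together. With the replicate block, 79 miRNAs were called higher and 85 lower, miR-146a-5p had -2.36 and miR-150-5p -2.43. Depth limits miR-142-5p, miR-223-3p, miR-21a-3p and miR-155-5p, which had at most 25 counts in a library.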
